A study of Mus musculus with 14 samples.

Results

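The subunit genes of the 5 oxidative phosphorylation (OXPHOS) complexes were followed in left ventricles of mice with and without pressure overload. Genes were taken by symbol: Sdha to Sdhd, and all symbols that start with Ndufa, Ndufb, Ndufc, Ndufs, Ndufv, Uqcr, Cox4 to Cox8 or Atp5, without the Ndufaf assembly factors. This gave 82 of the 19937 genes that could be named on the array, with 36 genes of complex I, 4 of complex II, 8 of complex III, 17 of complex IV and 17 of complex V. The 13 subunits encoded by mitochondrial DNA were looked for and none was found under a probe set with 1 symbol, so that all 82 genes are nuclear. Cox7c and Ndufb4 were listed only on probe sets shared with another symbol and were not counted.

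All mice were male and on a C57BL/6 background. In aortic banding (AB) the ascending aorta is narrowed by a ligature, so that the left ventricle has to work against a higher pressure, and the Sham groups were operated on without narrowing. Each genotype, WT and CXCR5-/-, had 3 Sham mice and 4 AB mice, and each mouse gave 1 array of left ventricular total RNA. CXCR5-/- mice lack the receptor of the chemokine CXCL13 in all cells. The allele was made in embryonic stem cells of another strain and backcrossed to C57BL/6, whereas the WT mice were bought from a breeder and were not littermates. By the authors' account, the hearts for the arrays were taken 3 weeks after AB. AB mice entered the study only if flow across the ligature was fast enough. The mice's ages are not stated in the labels or methods.

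Complex I takes electrons from NADH and complex II takes them from succinate. Both pass them to ubiquinone, and complex III hands them over to cytochrome c. Complex IV delivers them to oxygen. Complexes I, III and IV pump protons across the inner mitochondrial membrane, and complex V uses the return of the protons to make ATP, on which the beating myocardium depends. Complex II is also an enzyme of the citric acid cycle and is encoded in the nucleus alone, and several complex IV subunits exist as a form of heart and skeletal muscle and a form common to most tissues.

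To show what lies in front of genes whose levels the results turn on, the 250 bases before the transcription start of 5 members are printed here, 5′ to 3′ on the strand of the gene, from the RefSeq annotation of GRCm38.p6. They are Sdha (chr13:74350241-74350490, minus strand) and Ndufv1 (chr19:4012756-4013005, minus strand), which fell with AB in both genotypes, Uqcr11 (chr10:80406822-80407071, minus strand) and Cox8b (chr7:140900447-140900696, minus strand), which fell with AB in the hearts labelled CXCR5-/-, and Sdhd (chr9:50603850-50604099, minus strand), which had the lowest p between genotypes after AB. Capitals mark matches to a motif.
Sdha: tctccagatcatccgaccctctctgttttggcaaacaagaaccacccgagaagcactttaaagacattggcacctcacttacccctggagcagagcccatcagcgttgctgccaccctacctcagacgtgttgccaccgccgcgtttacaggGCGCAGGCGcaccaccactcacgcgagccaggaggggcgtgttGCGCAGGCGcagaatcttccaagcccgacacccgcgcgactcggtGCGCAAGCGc
Ndufv1: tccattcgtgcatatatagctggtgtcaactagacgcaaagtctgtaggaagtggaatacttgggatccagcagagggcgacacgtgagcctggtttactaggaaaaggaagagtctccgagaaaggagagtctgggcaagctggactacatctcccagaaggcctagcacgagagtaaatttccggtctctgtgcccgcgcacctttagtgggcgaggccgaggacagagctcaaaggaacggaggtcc
Uqcr11: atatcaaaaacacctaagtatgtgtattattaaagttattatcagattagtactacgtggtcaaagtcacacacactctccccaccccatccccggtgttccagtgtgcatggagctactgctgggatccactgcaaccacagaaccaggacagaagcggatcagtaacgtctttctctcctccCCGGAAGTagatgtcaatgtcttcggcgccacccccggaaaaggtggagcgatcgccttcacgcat
Cox8b: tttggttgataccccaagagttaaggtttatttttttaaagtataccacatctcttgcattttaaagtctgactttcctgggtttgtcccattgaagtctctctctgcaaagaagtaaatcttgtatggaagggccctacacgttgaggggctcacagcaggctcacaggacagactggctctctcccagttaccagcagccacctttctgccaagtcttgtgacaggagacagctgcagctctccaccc
Sdhd: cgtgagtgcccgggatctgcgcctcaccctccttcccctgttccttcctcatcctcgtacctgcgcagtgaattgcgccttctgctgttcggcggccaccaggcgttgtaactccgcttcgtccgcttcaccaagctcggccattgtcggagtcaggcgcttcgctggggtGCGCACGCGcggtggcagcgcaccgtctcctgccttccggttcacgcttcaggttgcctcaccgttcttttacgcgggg

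The capitals in Sdha and Sdhd are matches to GCGCANGCG, the core of the element bound by NRF1, a transcription factor of many mitochondrial genes. Sdha held 3 such matches, which began 98, 55 and 10 bases before the start, and Sdhd held 1, which began 79 bases before it. The capitals in Uqcr11 match CCGGAAGT, a sequence bound by the Ets factor GABPA (NRF2), 66 bases before the start. Of the 82 members, 67 had a sequence in the table used, and 12 of them (17.9%) held the NRF1 letters on either strand, against 5.33% of the 27025 promoters of all genes. The GABPA letters stood in 3 members (4.48%; Atp5h, Uqcr11 and Uqcrh) against 2.93% of all promoters. The letters TNAAGGTCA, bound by the oestrogen related receptor ERRα, stood in 1 member (1.49%; Atp5g3) against 1.14%, and TATAAA stood in 7 (10.4%) against 13%. No match to the NRF1, GABPA or ERRα letters lay in the 250 bases of Ndufv1, Cox8b, Ndufb10 or Atp5g1. The motif letters were chosen with the sequences in view, only 1 start per gene was read, and a match says only that the letters are there. The promoters of Atp5a1, Cox4i2, Ndufa4l2, Ndufs1 and Uqcrq were not used here.

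Levels are given as deposited by the authors, in log2 after robust multi-array average (RMA), where 1 unit is a factor of 2. A level can be compared between arrays for 1 gene and not between genes, since probes differ in brightness. The medians of the 14 arrays lay between 5.19 and 5.30, and correlations between arrays ran from 0.975 to 0.993. Groups were compared with limma in a single fit of the 4 groups, with the standard error (SE) of that fit, and a gene was called where its Benjamini-Hochberg adjusted p over all 19937 genes was under 0.05. The probe set of Cxcr5 ranged from 3.03 to 3.30 in the 7 WT hearts and from 3.85 to 4.47 in the 7 hearts labelled CXCR5-/-. It thus set the arrays apart by label without overlap, but it was higher where the receptor should be missing. Whether its probes lie in the replaced coding region is unknown, so it does not show that the receptor was lost. The hearts are therefore called labelled CXCR5-/- below. Cardiomyocyte markers such as Actc1 (12.99 to 13.10) were bright on all arrays. The atrial light chain gene Myl7 stood at 9.09 on WT Sham 1, 9.68 on CXCR5-/- Sham 1 and 8.82 on CXCR5-/- Sham 2, and at 5.65 to 7.49 on the other arrays.

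A small set of OXPHOS genes was called lower with AB in both genotypes, in WT at about the share of all genes. Of all genes, 4.22% were called lower in WT and 5.86% in the hearts labelled CXCR5-/-. In WT hearts 4 members were called lower: Sdha of complex II, Ndufs1 and Ndufv1 of complex I and Atp5a1 of complex V. The same 4 were called lower in the hearts labelled CXCR5-/-, but the share of all genes called lower in both genotypes was not counted. Both comparisons take their means from different arrays but share the estimate of the spread from the single fit. With the compared groups fitted alone, Atp5a1 was called in neither genotype. A further 5 members fell in the hearts labelled CXCR5-/-, namely Ndufb10 of complex I, Uqcr11 and Uqcrq of complex III, Cox8b of complex IV and Atp5g1 of complex V. Of members that rose there was 1 in each genotype, Cox4i2 in WT and Ndufa4l2 in the hearts labelled CXCR5-/-. Bulk RNA cannot tell fewer cells of a type from less RNA per cell.

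In WT, the 4 lower calls of 82 members stood against 4.22% of all genes called lower, and the 1 higher call against 5.1%. Most members are bright, and 67 had a mean level over 9. Of these, 4 (5.97%) were called lower, against 14.4% of the 1094 other genes with such a mean, a comparison chosen after the data were seen. The median log2 difference of the members was -0.07, with 57 of 82 below 0, where the median of all genes was 0.01 and 47.2% of genes were below 0. The members' median turned to 0.029 without WT AB 4 and to 0.006 without WT Sham 1. The groups did not overlap for 5 lower members and 1 higher member, against 7.74% and 9.39% of all genes. Without WT Sham 2 or without WT Sham 3, 2 members were called lower in WT. The higher count was 0 without WT AB 1, WT AB 3 or WT Sham 2, and 2 without WT AB 4.

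Among the hearts labelled CXCR5-/-, the 9 lower calls stood against 5.86% of all genes called lower and the 1 higher call against 8.28%. Among genes with a mean over 9, 8 of 67 members (11.9%) and 16.8% of the 1094 other genes were called lower. Here the median of the members was -0.22, and 77 of 82 lay below 0, where the median of all genes was -0.01 and 53.3% of genes lay below 0. AB and Sham arrays did not overlap for 25 lower members and 2 higher ones, against 11.7% and 13.7% of all genes. With a mean over 9, 24 of 67 members (35.8%) and 25.2% of the other genes were lower without overlap. The authors name significance analysis of microarrays (SAM) as their test, and a version of it with all permutations called 16 members lower in these hearts and 4 in WT. With array weights the counts were 22 and 4. The count of 9 rested on few arrays. It was 4 without CXCR5-/- AB 3, 5 without CXCR5-/- AB 4, 3 without CXCR5-/- Sham 1 and 5 without CXCR5-/- Sham 2. Without the 3 Sham arrays that were high in Myl7 it was 2 (Ndufs1 and Sdha), in a fit that leaves 1 CXCR5-/- Sham array and assumes that it varies like the other groups. With the mean of the atrial marker genes as a covariate, on all 14 arrays, the lower count was 8 in these hearts and 4 in WT. The higher count in these hearts was 2 without WT AB 1 or WT AB 4.

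**Figure D1:**
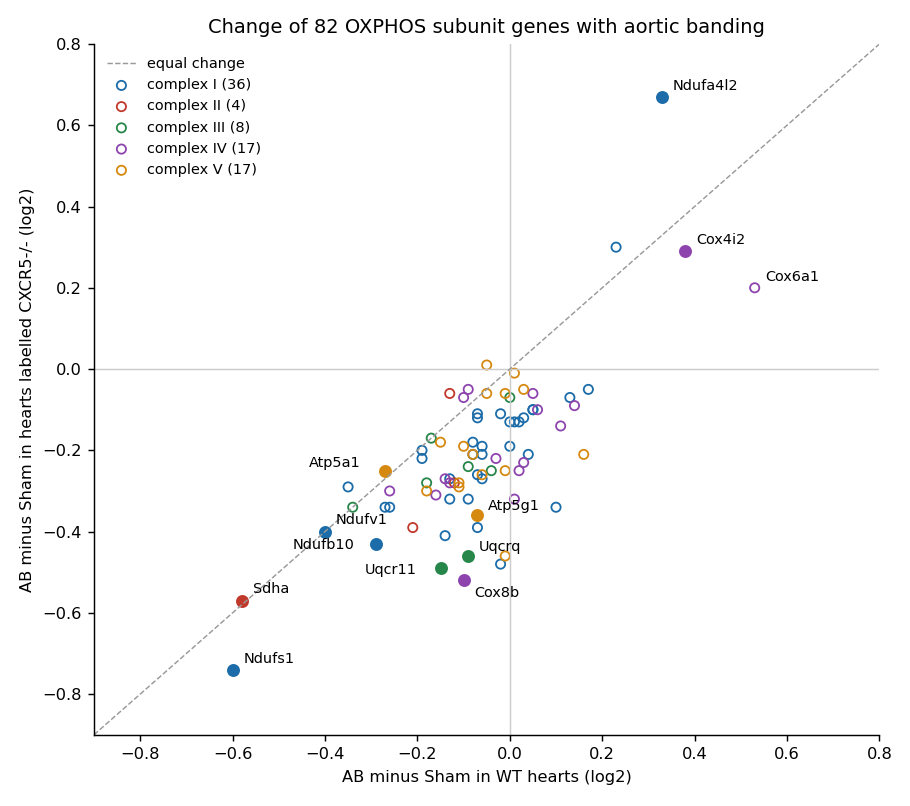
Log2 difference between AB and Sham of each of the 82 members in WT hearts (horizontal axis) and in hearts labelled CXCR5-/- (vertical axis), coloured by complex, with filled points for members called in either genotype and a dashed line of equal change. Sdha, Ndufv1 and Atp5a1 lie near the line, whereas Cox8b, Uqcr11, Uqcrq and Atp5g1 lie below it, and most open points lie below 0 on the vertical axis.

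In complex II, 1 gene had the lowest p of all members in both genotypes. Sdha, the flavoprotein subunit that oxidizes succinate, lay at 11.77, 11.82 and 11.76 in WT Sham and at 11.03, 11.33, 11.20 and 11.28 in WT AB. It lay at 11.71, 11.77 and 11.80 after Sham and at 11.25, 11.03, 11.28 and 11.22 after AB in the hearts labelled CXCR5-/-. All 8 AB arrays were below all 6 Sham arrays. Sdha fell by 32.9% in WT, a log2 change of -0.58 (SE 0.09, adjusted p = 0.00065), and the log2 change in the hearts labelled CXCR5-/- was -0.57 (SE 0.09, adjusted p = 0.000441). It was called in both genotypes under all 29 alternative settings. The difference between these changes was 0.01, with a 95% interval from -0.27 to 0.29.

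The other subunits of complex II were not called. Sdhb, the iron-sulphur subunit, differed by -0.21 in WT and by -0.39 in the hearts labelled CXCR5-/- (SE 0.15, adjusted p = 0.105). In the latter its 4 AB arrays, at most 10.61, all lay under the 3 Sham arrays, at least 10.63. The membrane anchors Sdhc and Sdhd differed by -0.13 and -0.12 in WT, and their values in the hearts labelled CXCR5-/- were -0.06 and -0.28. For Sdhc the 95% interval reached from -0.32 to 0.05 in WT and from -0.25 to 0.12 in the hearts labelled CXCR5-/-.

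In complex I, the genes that fell in both genotypes encode parts of the NADH-oxidizing arm. Ndufs1, its largest iron-sulphur subunit, lay at 10.98, 11.39 and 11.47 in WT Sham and at 10.44, 10.69, 10.54 and 11.07 in WT AB. After Sham the hearts labelled CXCR5-/- gave 11.13, 11.45 and 11.44, and after AB 10.61, 10.57, 10.58 and 10.65. The WT groups overlapped, because WT AB 4 was above WT Sham 1, and the groups labelled CXCR5-/- did not. The log2 change was -0.60 in WT (SE 0.14, adjusted p = 0.0118) and -0.74 in the hearts labelled CXCR5-/- (SE 0.14, adjusted p = 0.00167). The latter was the largest decrease of the 82 members, equal to a change of -40.1%. In WT the call was lost without WT Sham 2 or WT Sham 3, and the log2 change ran from -0.75 to -0.50 over the alternative settings.

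Ndufv1, the flavin-binding subunit that accepts electrons from NADH, lay at 11.20, 11.10 and 11.13 in WT Sham and at 10.68, 10.75, 10.87 and 10.67 in WT AB. It lay at 11.09, 11.09 and 11.07 after Sham and at 10.80, 10.63, 10.62 and 10.65 after AB in the hearts labelled CXCR5-/-. AB and Sham did not overlap in either genotype. Its log2 change was -0.40 in WT (SE 0.08, adjusted p = 0.00508) and -0.40 in the hearts labelled CXCR5-/- (SE 0.08, adjusted p = 0.00297), where the call was lost without the 3 Sham arrays high in Myl7. Ndufb10, an accessory subunit of the membrane arm, passed only just in the hearts labelled CXCR5-/-, with -0.43 (SE 0.14, adjusted p = 0.0497). Its value in WT was -0.29. The call was lost under 15 of 29 alternative settings, which left out any of the Sham arrays, CXCR5-/- AB 3 or 4 or WT AB 2 or 3 among others, and the log2 change ran from -0.53 to -0.23 over all 29.

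The 6 core subunits of complex I that were measured (Ndufs1, Ndufs3, Ndufs7, Ndufs8, Ndufv1 and Ndufv2) had a median of -0.17 in WT and -0.36 in the hearts labelled CXCR5-/-, with 2 called lower in each. The 30 other genes of the complex had medians of -0.06 and -0.20, with 0 called lower in WT and 1 in the hearts labelled CXCR5-/-. Core members outside the calls ranged widely. Ndufs7 differed by 0.05 and -0.10 and Ndufs8 by -0.07 and -0.39, in WT and in the hearts labelled CXCR5-/-.

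Ndufa4l2, a paralogue of Ndufa4 known as a gene induced by hypoxia, ran the other way. It lay at 7.90, 7.46 and 7.67 in WT Sham and at 8.28, 7.96, 8.32 and 7.48 in WT AB, and the groups overlapped. It lay at 7.50, 7.60 and 7.64 after Sham and at 8.26, 8.38, 8.14 and 8.23 after AB in the hearts labelled CXCR5-/-, with no overlap. It rose by 0.67 in the hearts labelled CXCR5-/- (SE 0.16, adjusted p = 0.00789), whereas 0.33 in WT did not pass (adjusted p = 0.243). The difference between the changes, 0.34 with a 95% interval from -0.14 to 0.81, was not called. Its call in the hearts labelled CXCR5-/- was lost without the 3 Sham arrays high in Myl7. Ndufa4 itself, which is named for complex I and is now counted with complex IV, differed by -0.02 and -0.11.

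In complex III, Uqcr11, a small accessory subunit, lay at 9.53, 9.32 and 9.42 in WT Sham and at 9.59, 9.09, 9.29 and 9.11 in WT AB. It lay at 9.58, 9.43 and 9.45 after Sham and at 9.27, 9.03, 8.79 and 8.91 after AB in the hearts labelled CXCR5-/-. Only in the latter genotype did AB lie apart from Sham. The log2 change there was -0.49 (SE 0.13, adjusted p = 0.0149), and -0.15 in WT did not pass (adjusted p = 0.57). Without CXCR5-/- Sham 1 the call was lost, and the log2 change ran from -0.58 to -0.33 over the alternative settings. A further probe set of Uqcr11 gave -0.54, and -0.23 in WT.

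Uqcrq, which helps to hold cytochrome b, lay at 10.47, 10.16 and 10.15 after Sham and at 10.04, 9.96, 9.60 and 9.60 after AB in the hearts labelled CXCR5-/-. It fell there by 0.46 (SE 0.13, adjusted p = 0.0228) and differed by -0.09 in WT. The call was lost without CXCR5-/- AB 3, CXCR5-/- AB 4 or CXCR5-/- Sham 1, and the log2 change ran from -0.54 to -0.26. The 3 larger subunits among the members, the core proteins Uqcrc1 and Uqcrc2 and the Rieske iron-sulphur protein Uqcrfs1, were called in neither genotype. Uqcrfs1 differed by -0.34 in each, with an adjusted p of 0.0715 in the hearts labelled CXCR5-/-. Uqcrc2 was at 11.87 to 11.90 in WT Sham and 11.64 to 11.75 in WT AB, and at 11.80 to 11.89 and 11.61 to 11.75 in the hearts labelled CXCR5-/-, so that AB lay below Sham in both genotypes while the difference of -0.17 in each did not pass. All 8 complex III genes were below 0 in the hearts labelled CXCR5-/- (median -0.26) and 7 of 8 were in WT (median -0.12).

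In complex IV the WT median was 0.01, of either sign over the alternatives, and 8 of 17 genes were below 0. Its median in the hearts labelled CXCR5-/- was -0.22 and 15 of 17 were below 0. Cox8b, the heart and skeletal muscle form of subunit VIII, carried the only lower call. It lay at 11.65, 11.44 and 11.59 in WT Sham and at 11.54, 11.05, 11.79 and 11.47 in WT AB, so that the WT groups overlapped. It lay at 11.61, 11.56 and 11.42 after Sham and at 11.25, 10.96, 10.85 and 10.97 after AB in the hearts labelled CXCR5-/-, without overlap. It fell there by 0.52 (SE 0.14, adjusted p = 0.0172), and -0.10 in WT did not pass. The call was lost without CXCR5-/- AB 3, CXCR5-/- Sham 1 or CXCR5-/- Sham 2, and the log2 change ran from -0.60 to -0.41. Its counterpart in most tissues, Cox8a, differed by 0.14 in WT and -0.09 in the hearts labelled CXCR5-/-.

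The other muscle forms were not called with AB. Cox7a1 differed by 0.02 and -0.25 and Cox6a2 by 0.06 and -0.10, in WT and in the hearts labelled CXCR5-/-. Their common forms gave -0.14 and -0.27 for Cox7a2 and 0.53 and 0.20 for Cox6a1. Cox6a1 had the widest spread. It stood at 8.12, 7.36 and 7.63 in WT Sham and at 8.79, 8.46, 8.03 and 7.63 in WT AB, and the 95% interval of the WT difference ran from -0.01 to 1.06. The forms known from testis were dim, with Cox7b2, Cox8c and Cox6b2 being the 3 members below the median of all probe sets, and none of them was called.

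Cox4i2, the form of subunit IV linked to low oxygen, rose in WT, and the common form Cox4i1 was not called. Cox4i2 lay at 6.78, 6.66 and 6.80 in WT Sham and at 7.31, 7.13, 7.19 and 6.89 in WT AB. It lay at 6.76, 6.69 and 6.63 after Sham and at 6.90, 6.94, 7.09 and 7.01 after AB in the hearts labelled CXCR5-/-. AB lay above Sham in both genotypes. The log2 change was 0.38 in WT (SE 0.10, adjusted p = 0.0198) and 0.29 in the hearts labelled CXCR5-/- (adjusted p = 0.0587), which did not pass. The WT call was lost without WT AB 1, WT AB 3 or WT Sham 2, and the log2 change ran from 0.32 to 0.46. Cox4i1 differed by -0.13 and -0.28.

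**Figure D2:**
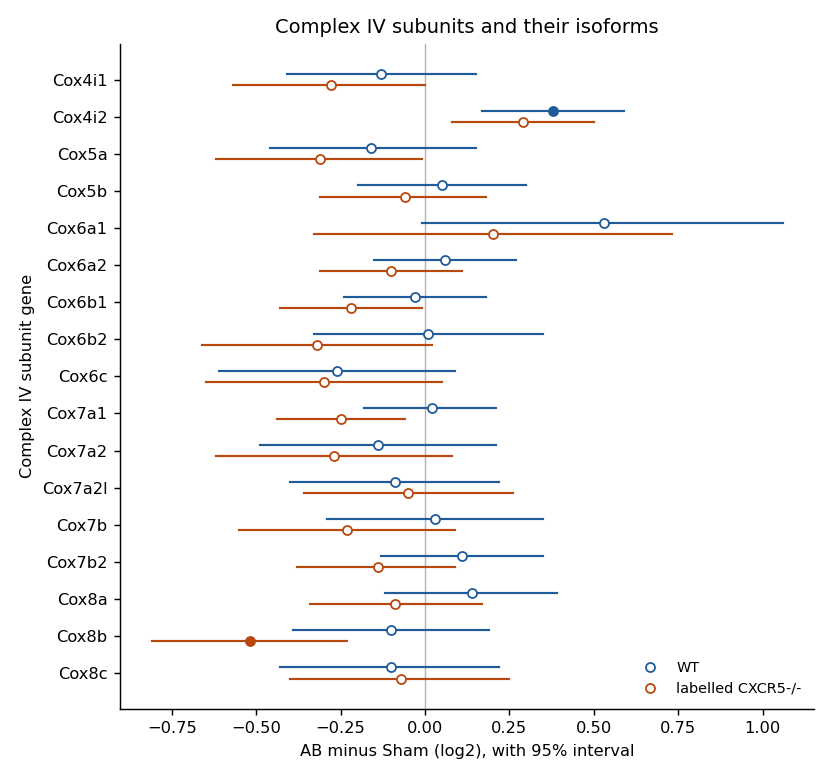
Log2 difference between AB and Sham with its 95% interval for the 17 complex IV genes, in WT hearts (blue) and hearts labelled CXCR5-/- (orange), with filled points for called genes. Cox4i2 lies above 0 in both genotypes, Cox8b lies at -0.52 in the hearts labelled CXCR5-/- and at -0.10 in WT, and Cox6a1 has the widest intervals.

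Complex V was represented by its catalytic head, its stalk and its membrane ring. Atp5a1, the α subunit of the head, lay at 12.50, 12.49 and 12.50 in WT Sham and at 12.14, 12.30, 12.20 and 12.27 in WT AB. It lay at 12.49, 12.48 and 12.51 after Sham and at 12.28, 12.17, 12.26 and 12.27 after AB in the hearts labelled CXCR5-/-. Every AB array was below every Sham array. The log2 change was -0.27 in WT (SE 0.08, adjusted p = 0.0361) and -0.25 in the hearts labelled CXCR5-/- (SE 0.08, adjusted p = 0.0386). These calls sat near the threshold and were lost under 9 of 29 alternative settings in WT and 12 of 29 in the hearts labelled CXCR5-/-. The WT call was lost without WT AB 1, WT AB 3, any 1 WT Sham array or CXCR5-/- Sham 3, among others, and the other call without any 1 array labelled CXCR5-/- or WT Sham 2. The log2 change ran from -0.30 to -0.24 in WT and from -0.27 to -0.22 in the hearts labelled CXCR5-/-.

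Atp5b, the catalytic β subunit, differed by -0.15 and -0.18 and was not called, although AB and Sham arrays did not overlap in either genotype. Atp5c1, the γ subunit that turns inside the head, differed by -0.05 in WT (95% interval from -0.27 to 0.17) and 0.01 in the hearts labelled CXCR5-/- (-0.21 to 0.23). Of the 3 genes that encode the same c subunit of the ring, Atp5g1 lay at 11.40, 11.25 and 11.17 after Sham and at 11.09, 10.92, 10.79 and 10.84 after AB in the hearts labelled CXCR5-/-. Atp5g1 fell there by 0.36 (SE 0.11, adjusted p = 0.0392) and differed by -0.07 in WT. The call was lost without CXCR5-/- AB 2, 3 or 4 or any 1 CXCR5-/- Sham array, and the log2 change ran from -0.42 to -0.26. Atp5g2 and Atp5g3 were not called, at -0.29 and -0.30 in the hearts labelled CXCR5-/- and -0.11 and -0.18 in WT.

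Of the 82 members, 17 had more than 1 probe set. They were tested in a separate fit over all probe sets, whose adjusted p values differ from those above. In that fit, for the hearts labelled CXCR5-/-, a further probe set of Uqcr11 gave -0.54 (adjusted p = 0.0253) and the one used here -0.49 (adjusted p = 0.0433). A further probe set of Atp5g1 gave -0.36 (adjusted p = 0.0436), and the one used here, also at -0.36, did not pass (adjusted p = 0.0826). For Ndufab1, the acyl carrier protein, a dimmer probe set gave -0.84 (adjusted p = 0.00359) against -0.26 in the brighter probe set used here. For Atp5g2 a dimmer probe set gave -0.74 (adjusted p = 0.00312) against -0.29 in the one used here. Another dimmer probe set of Atp5g2 gave only -0.13 (SE 0.24, adjusted p = 0.836). For Ndufab1 and Atp5g2 the size of the change is therefore uncertain, and for Atp5g1 the call depends on the fit.

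**Figure D3:**
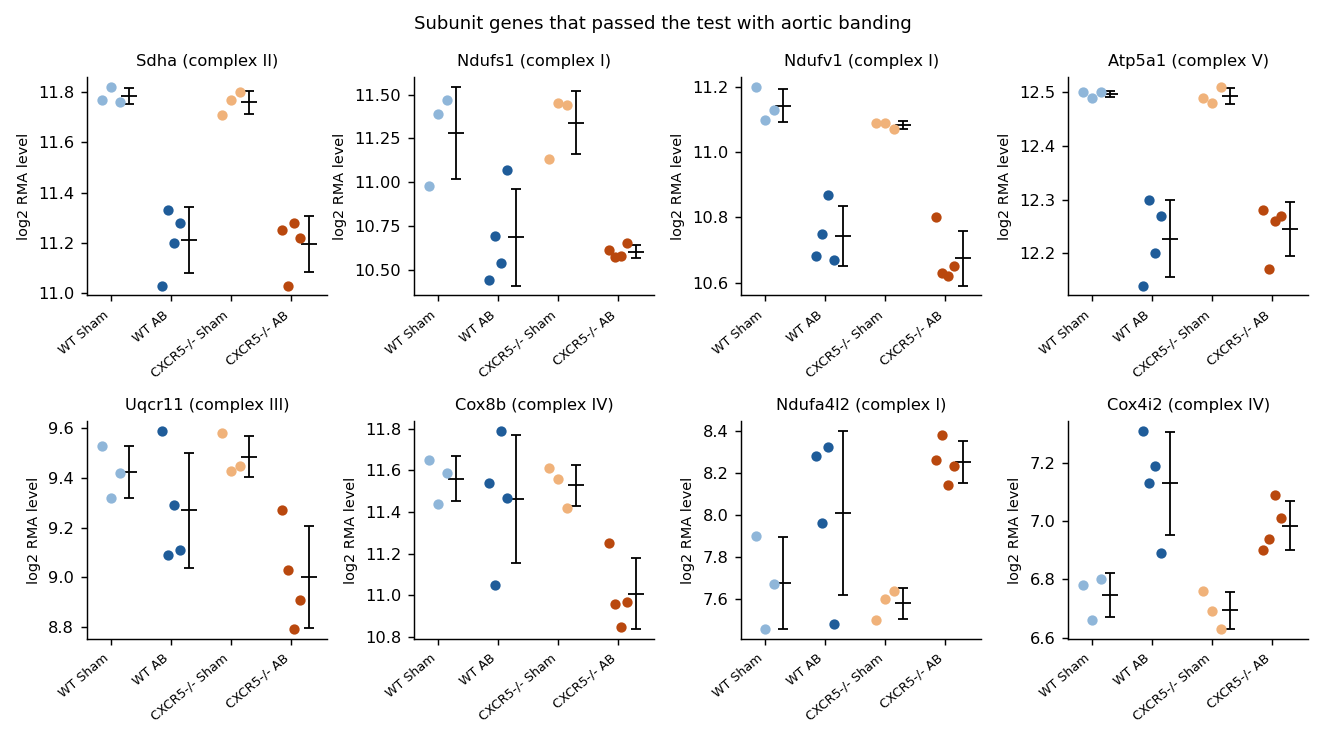
Log2 RMA level of 8 members called with AB on each of the 14 arrays, by group, with the group mean and SD beside the points. Sdha, Ndufv1 and Atp5a1 show AB below Sham in both genotypes, Uqcr11 and Cox8b only in hearts labelled CXCR5-/-, and Ndufa4l2 and Cox4i2 rise.

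Averaging the AB changes of both genotypes, a contrast added after the data were seen, used all 14 arrays and called 16 members lower against 10.4% of all genes, and 2 higher against 12.3%. With a mean over 9, 15 of 67 members (22.4%) and 24.7% of the 1094 other genes were called lower. Sdha was again first (-0.57, adjusted p = 5.86e-06). The larger complex III members now passed, with Uqcrfs1 at -0.34 (adjusted p = 0.00669), Uqcrc1 at -0.23 (adjusted p = 0.0446) and Uqcrc2 at -0.17 (adjusted p = 0.0305). So did Atp5b (-0.17, adjusted p = 0.0389) and Atp5g3 (-0.24, adjusted p = 0.0321) of complex V. Complex I added Ndufa9 (-0.32), Ndufs4 (-0.30) and Ndufa10 (-0.20), which are accessory subunits. The higher calls were Ndufa4l2 (0.50, adjusted p = 0.00313) and Cox4i2 (0.34, adjusted p = 0.00168).

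The members did not shift alike on all arrays of a group. As a deviation from the WT Sham mean, the median of the 82 members was -0.08, -0.07, -0.45 and -0.39 on CXCR5-/- AB 1 to 4. It was 0.18, -0.04, -0.11 and -0.30 on WT AB 1 to 4, and the Sham arrays ranged from -0.10 to 0.14. The shift of the AB group labelled CXCR5-/- thus came mainly from its arrays 3 and 4. Without these arrays, an alternative added after the data were seen, the median of the members was -0.055 and 4 were called lower, of which Sdha, Ndufs1 and Ndufv1 were also called with all arrays.

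Genes outside OXPHOS moved with the same arrays. The median of 53 cytosolic ribosomal protein genes was 0.20, 0.21, -0.19 and -0.22 on CXCR5-/- AB 1 to 4 and 0.44, 0.13, 0.08 and -0.10 on WT AB 1 to 4. The median of 77 mitochondrial ribosomal protein genes was 0.01, 0.03, -0.31 and -0.19, and 0.26, 0.14, 0.04 and -0.26, in the same order. The median of all genes stayed between -0.02 and 0.03. With the ribosomal median of each array as a covariate, also added after the data were seen, 16 members were called lower in WT against 4.99% of all genes, and 47 in the hearts labelled CXCR5-/- against 7.29%. All 4 and all 9 lower calls were kept in that fit, and the medians of the members were -0.17 and -0.32. The mean ribosomal median was higher after AB, at 0.14 against 0 in WT and 0 against -0.1 in the hearts labelled CXCR5-/-. A covariate that moves with the members and rises with AB lowers their estimates by itself, so the kept calls lend no support. What lies behind the shared spread was not tested.

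Taken by complex, the same deviations from WT Sham, which include the AB change itself, were as follows. On WT AB 1, where the ribosomal genes were highest, complex I stood at 0.25 and complex II at -0.05. On CXCR5-/- AB 3 complex II stood at -0.63, complex III at -0.52, complex I at -0.48, complex V at -0.40 and complex IV at -0.34. The SD of the medians within groups was 0.20 in complex I and 0.13 to 0.15 in the others, and a difference between complexes was not tested. The citric acid cycle genes were at -0.26 to -0.53 on all 8 AB arrays and at -0.04 to 0.01 on the 6 Sham arrays. The 3 larger complex III members were at -0.13 to -0.30 on the AB arrays and -0.08 to 0.03 on the Sham arrays.

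**Figure D4:**
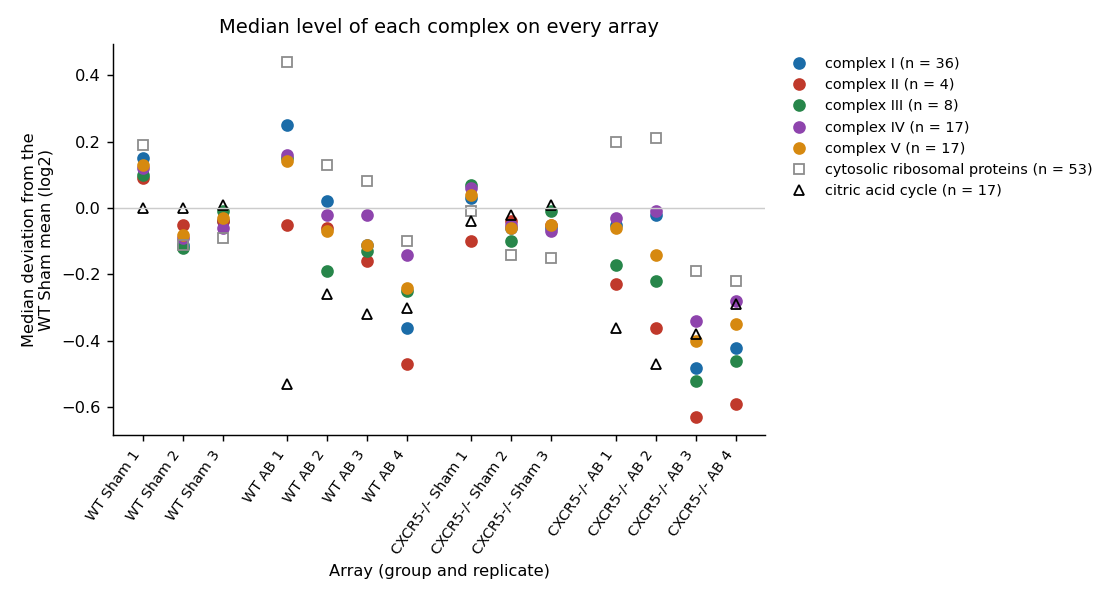
Median deviation from the WT Sham mean, in log2, of each complex on each of the 14 arrays, with the cytosolic ribosomal protein genes (squares) and citric acid cycle genes (triangles). The complexes are lowest on CXCR5-/- AB 3 and 4, where the ribosomal genes are also lowest, and the citric acid cycle genes are low on all AB arrays.

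Whether the genotypes differed after AB was asked by setting the arrays labelled CXCR5-/- against WT. With limma no member was called, against 0.0251% of all genes called higher and 0.0201% called lower, and SAM called 0. At an unadjusted p under 0.05 there were 14 members, all lower in the hearts labelled CXCR5-/-, against 5.94% of all genes. They were 4 of complex I, 1 of complex II, 2 of complex III, 3 of complex IV and 4 of complex V. The median of all members was -0.17 and 77 of 82 were below 0, against 50.7% of all genes. Without CXCR5-/- AB 3 and 4 the median was -0.001, and with the ribosomal covariate it was -0.06. That covariate moves with the members and had a mean of 0.14 in WT AB and 0 in CXCR5-/- AB. It therefore draws this median towards 0 by itself, and no conclusion is drawn from it.

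Sdhd, the small membrane anchor of complex II, had the lowest p. It lay at 10.79, 10.86, 10.71 and 10.37 in WT AB and at 10.49, 10.31, 9.98 and 9.93 in AB hearts labelled CXCR5-/-. The groups overlapped through WT AB 4. The difference was -0.50 (SE 0.13, 95% interval from -0.78 to -0.23, limma adjusted p = 0.281). Sdhd was also lower after Sham, with 10.56, 10.42 and 10.38 in the hearts labelled CXCR5-/- and 11.00, 10.67 and 10.74 in WT, a difference of -0.35 (adjusted p = 0.9999) without overlap. With the replicate number as a block over all 14 arrays, the AB difference was called (limma adjusted p = 0.0437). That block also pairs Sham arrays, which did not meet the pairing rule (r 0.026 for replicate 2 between genotypes). With the block in the 8 AB arrays alone, which met the rule, the AB difference was not called (limma adjusted p = 0.141). It was -0.28 without CXCR5-/- AB 3 and 4. Sdhd lies on chromosome 9, as does Cxcr5, with 66 protein-coding genes between them in RefSeq, and whether its position bears on the difference was not tested.

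Atp5l, the g subunit of complex V, lay at 11.56, 11.16, 11.50 and 11.35 in WT AB and at 11.19, 10.91, 10.86 and 11.02 in AB hearts labelled CXCR5-/-. The difference was -0.39 (SE 0.11, adjusted p = 0.307), and after Sham it was -0.02. Its 5 probe sets gave -0.39, -0.35, -0.26, -0.25 and 0.26, so they disagreed in sign. The gene Atp5l is also on chromosome 9, with 8 protein-coding genes between it and Cxcr5. This is the position of the gene, and where each of its probe sets matches was not looked up. Whether the position bears on the difference was not tested.

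Cox8b, with the values given above, differed by -0.46 (SE 0.13, adjusted p = 0.356) and by -0.03 after Sham. Cox7a1, the muscle form of subunit VIIa, was the 1 member whose groups did not overlap after AB, where 1.49% of all genes were lower without overlap. It lay at 12.20, 12.01, 12.03 and 11.99 in WT AB and at 11.77, 11.95, 11.65 and 11.77 in AB hearts labelled CXCR5-/-, a difference of -0.27 (SE 0.08, adjusted p = 0.471). After Sham its difference was -0.01.

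**Figure D5:**
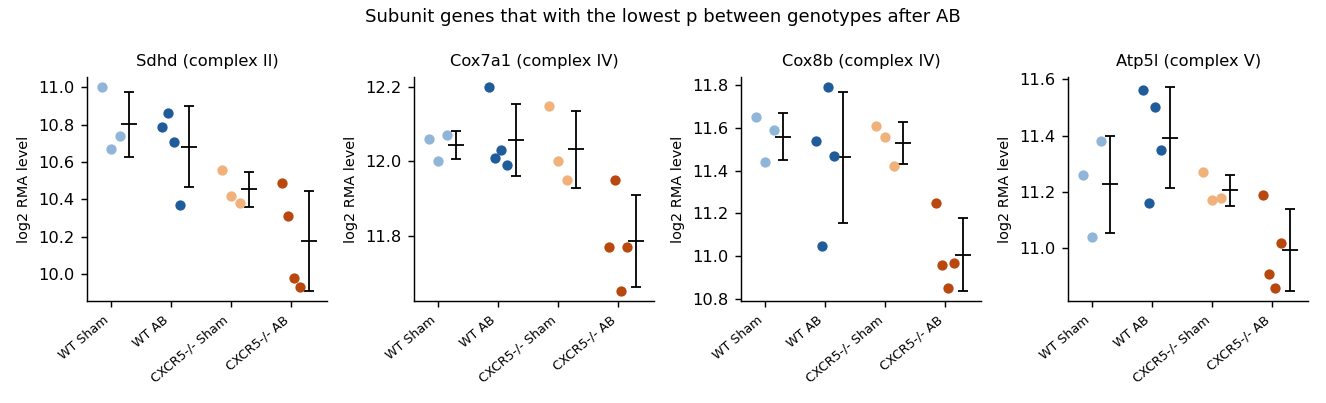
Log2 RMA level on each array of the 4 members with the lowest p between genotypes after AB, by group, with the group mean and SD. The mean of the AB hearts labelled CXCR5-/- is the lowest of the 4 group means for each gene, their arrays overlap with WT AB for all but Cox7a1, and for Sdhd the Sham arrays labelled CXCR5-/- also lie below WT Sham.

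After Sham, no member was called between genotypes, against 0.0201% of all genes in each direction, and SAM called 0. There were 2 members at an unadjusted p under 0.05 against 2.38% of all genes, Sdhd and Cox6b2. Cox6b2, the dim testis form, differed by 0.41 (SE 0.17, adjusted p = 0.9999). The groups did not overlap for 2 members that were higher and 2 that were lower, against 3.28% and 3.57% of all genes. The median of the members was -0.02, and it turned to 0.04 without WT Sham 1 and to 0.062 with the ribosomal covariate. The mean of that covariate was -0.1 in CXCR5-/- Sham and 0 in WT Sham, which raises this median by itself.

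The difference between the AB changes of the genotypes was tested in the same fit and shares all of its arrays with the comparisons above. No member was called with limma, against 0% of all genes, and SAM was not run on this contrast. Cox8b (-0.42, SE 0.20) and Atp5l (-0.37, SE 0.16) were the 2 members at an unadjusted p under 0.05, against 2.88% of all genes, and both had an adjusted p of 0.9998. A call in 1 genotype alone, as for Uqcr11 or Cox8b, is therefore not shown to differ between genotypes. The median difference was -0.14 in complex I, -0.07 in complex II, -0.13 in complex III, -0.16 in complex IV and -0.12 in complex V. Over all members it was -0.14, and 0.015 without CXCR5-/- AB 3 and 4.

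Genes that feed the chain were set beside its subunits. The counts of lower calls in the lists that follow stand against 4.22% of all genes in WT and 5.86% in the hearts labelled CXCR5-/-, or 14.4% and 16.8% of genes with a mean over 9. Of 17 citric acid cycle genes measured, 9 were called lower with AB in WT and 10 in the hearts labelled CXCR5-/-, with 8 in common, and the medians were -0.39 and -0.38. Dlat, of the pyruvate dehydrogenase complex, differed by -0.48 in WT and -0.67 in the hearts labelled CXCR5-/-, the succinate-CoA ligase gene Sucla2 by -0.47 and -0.50, and the isocitrate dehydrogenase gene Idh2 by -0.43 and -0.47. Of 20 genes of ubiquinone synthesis and electron transfer, 5 were called lower in WT and 8 in the hearts labelled CXCR5-/-, including all 5. Among them were Pdss2 (-0.69 and -0.85) and Coq2 (-0.60 and -0.60), which build ubiquinone, and Etfdh (-0.47 and -0.51), which passes electrons from fatty acid oxidation to it. Cytochrome c (Cycs) differed by -0.13 and -0.22 and was not called.

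Of 9 genes of ATP and phosphate exchange, 2 fell in both genotypes, the outer membrane channel Vdac1 (-0.57 and -0.54) and the phosphate carrier Slc25a3 (-0.31 and -0.30). Of 43 assembly factors, 4 were called lower and 1 higher in WT, and 7 lower and 1 higher in the hearts labelled CXCR5-/-. Lrpprc, which stabilizes mitochondrial mRNA, differed by -0.71 and -0.90, and Acad9, an assembly factor of complex I, by -0.55 and -0.63. Tmem186, another, was called in the hearts labelled CXCR5-/- (-0.41) and not in WT (-0.28). Cox19, which serves complex IV assembly, rose by 0.58 and 0.59.

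Of 16 regulators of mitochondrial biogenesis and DNA upkeep, 1 was called lower in WT and 4 in the hearts labelled CXCR5-/-. The helicase gene Twnk differed by -0.51 and -0.68, the polymerase gene Polg by -0.45 in the latter (called) and -0.31 in WT (not called), and Polrmt by -0.37 (called) and -0.15 (not called). Of 17 genes of cristae, fusion and import, 3 and 4 were called lower, with Opa1 at -0.52 and -0.58, Mfn1 at -0.38 and -0.39 and Mfn2 at -0.55 and -0.59. Of the 77 mitochondrial ribosomal protein genes none was called in either genotype, and of the 53 cytosolic ones 1 (Rpl38) was called higher in WT.

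Markers of other cells moved with AB beside these results. Their higher calls stand against 5.1% of all genes in WT and 8.28% in the hearts labelled CXCR5-/-. Of 8 fibroblast markers, 5 were called higher in WT and all 8 in the hearts labelled CXCR5-/-, and their median deviation was 0.56 to 1.02 on the WT AB arrays and 0.88 to 1.05 on the CXCR5-/- AB arrays, against -0.08 to 0.14 on the Sham arrays. Of 7 macrophage markers, 3 and 5 were called higher. Of 10 cardiomyocyte markers, 1 was called lower in WT (Ryr2) and 3 in the hearts labelled CXCR5-/- (Ryr2, Tnni3 and Myh6). The median deviation of the cardiomyocyte markers was -0.12 to -0.21 on the 8 AB arrays and -0.01 to 0.01 on the Sham arrays, and its values did not set CXCR5-/- AB 3 and 4 (-0.20 and -0.16) apart from CXCR5-/- AB 1 and 2 (-0.15 and -0.21). The part of these cell types in the OXPHOS values was not tested. Endothelial, smooth muscle, skeletal muscle and brown fat lists had at most 1 call each in a genotype, which was higher. Atrial, white fat, red cell and liver or serum lists had none. Single arrays still stood out. Ucp1 of the brown fat list was at 6.69 on CXCR5-/- Sham 2 and at 3.57 to 4.50 on the others. The median deviation of that list was 0.17 on CXCR5-/- Sham 2 and 0.21 on CXCR5-/- Sham 1. The atrial gene Bmp10 was at 6.78 on CXCR5-/- AB 4 and at 3.02 to 3.32 on the others, and Alb ran from 3.98 to 9.73. Whether this bears on the OXPHOS values was not tested.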

How the data were processed

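Left ventricular RNA of 14 mice was hybridized to Affymetrix mouse Gene ST 1.0 arrays. The authors processed the arrays by RMA and deposited log2 values for 34760 probe sets; the RMA settings and the annotation build are not given in the sources used here. Values were used as deposited. Of the probe sets, 21640 had 1 symbol and 1321 several, and 21553 matched RefSeq (GRCm38.p6). Each of 19937 genes was represented by its single-symbol probe set with the highest mean.

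Groups came from the labels, 1 mouse per array. All groups were fitted with limma 3.58.1 (R 4.3.3; 10 residual and 7.13 prior degrees of freedom), without a dim filter, and adjusted by Benjamini-Hochberg. The median residual SD was 0.148, and the number of arrays limits precision. The steps were tested on simulated data. The members and gene lists were chosen with earlier results of these data known. Named members are complex II, the isoform pairs, up to 5 called members of each other complex, the 3 lowest p between genotypes and up to 3 called genes of each pathway list; the others were named after their values were seen. Replicate numbers were taken to pair arrays where every pair's deviations correlated above 0.1, which held for the AB arrays of both genotypes (r 0.125 to 0.22). However, CXCR5-/- AB 2, 3 and 4 each correlated better with a WT AB array of another number, so the pairing is uncertain. Alternatives were SAM, variance models, array weights, a dim filter, other normalization, scaling and probe set rules, fewer groups, the replicate block, an atrial covariate and left-out arrays.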

Additional observations from a re-analysis of the deposited data

Results flagged for a closer look

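Of 68 sets of 4 AB arrays examined, 56 over the 28 named members and 12 over the medians of all members and of each complex, 1 held an array far from the others, where chance flags about 1 in 20. For Ndufv1, CXCR5-/- AB replicate 1 stood at 10.80 and the other 3 arrays at 10.62 to 10.65, a gap of 0.877 of the group's range. It was still below all Sham arrays.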

How the results depend on the processing

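Under SAM, 2 members were called higher and 16 lower with AB in the hearts labelled CXCR5-/-. Array weights gave 3 higher in WT, and 2 higher and 22 lower in the hearts labelled CXCR5-/-. With dim genes left out 2 were higher there, with all probe sets tested 5 were lower there, and with the compared groups alone 0 were higher in WT and 2 in the hearts labelled CXCR5-/-. The replicate block over all 14 arrays, of which only the AB arrays met the pairing rule, gave 2 higher in each genotype. It gave 1 member lower (Sdhd) between genotypes after AB. Without the 3 Sham arrays highest in Myl7, 0 were higher in either genotype and 2 were lower in the hearts labelled CXCR5-/-. Of the alternatives chosen after seeing the data, the ribosomal covariate gave 2 higher and 16 lower in WT and 47 lower in the hearts labelled CXCR5-/-, and leaving out CXCR5-/- AB 3 and 4 gave 4 lower there. With each array left out in turn, WT counts ran from 0 to 2 higher and from 2 to 6 lower, and those of the hearts labelled CXCR5-/- from 1 to 2 higher and from 3 to 11 lower. The cause was not tested. No named member changed direction in a comparison where it was called or among the 3 lowest p. The members' median, which has no test, changed sign in WT (-0.07) under 4 alternatives (0.006 to 0.029), between genotypes after Sham (-0.02) under 4 (0.008 to 0.062), and for the difference of AB changes (-0.14) without CXCR5-/- AB 3 and 4 (0.015). With 3 and 4 arrays a group, the 95% intervals of many subunit differences near -0.2 include 0.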
